A study of Mus musculus with 12 samples.

Results

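The comparison described here set wild type mouse embryonic fibroblasts at fortified folic acid against wild type fibroblasts at moderate folic acid. It took 6 of the 12 libraries of the series, 3 per group, chosen by their labels and not by any measured value, and it was made across all expressed genes, 15186 of the 24279 in the deposited table. The fibroblasts were primary cultures from embryos at embryonic day 12.5, and the mice behind them were of the F3 generation. The moderate group came from mice fed 2 ppm folic acid and was grown in DMEM with 225 ng/mL, whereas the fortified group came from mice fed 10 ppm and was grown with 3600 ng/mL. Diet and culture medium thus changed together in every library and cannot be told apart. Polyadenylated RNA was taken with trizol and chloroform and made into libraries with the TECAN Universal Plus mRNA-Seq kit. The other 6 libraries came from Rsg1L3P/L3P embryos, mutant for a component of the ciliogenesis machinery, under the same pair of folic acid levels. They are used below as a second set of measurements. They also entered the fit behind the wild type p-values, through the gene filter, the scaling and the estimate of spread. A fit on the wild type libraries alone called 0 genes. Nothing in the labels ties a library to an embryo or litter, so the p-values measure only the spread between 3 libraries per group. In the wild type groups that spread is not technical alone. The libraries within each of these groups differed in sex-linked transcripts and so did not all come from 1 embryo. All mutant libraries held Xist and 0 Y-linked counts, so these transcripts cannot tell their embryos apart.

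Folate carries single carbon units that cells use to make thymidylate and purines and to regenerate methionine, the precursor of the methyl donor S-adenosylmethionine. Embryonic fibroblasts are secretory cells: they translate procollagen chains into the endoplasmic reticulum, hydroxylate and fold them there, export them to the Golgi in vesicles with a COPII coat, and crosslink them outside the cell together with elastin, fibronectin and proteoglycans. Folic acid is best known in the embryo for its bearing on closure of the neural tube.

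The wild type libraries held 39339131 to 48475920 counts, of which the 100 most abundant genes took 18.9 to 24.1%. Of the leading pair of principal components of these 6 libraries, the second (28.8% of variance) separated the groups, with moderate libraries from -51.6 to -17.7 and fortified ones from 29.5 to 46.8. The first (38.2%) set moderate wild type 1, at -85.9, apart from the other 5, which lay between -14.6 and 54.6. This library correlated less with moderate wild type 2 and 3 (r = 0.922 and 0.928 over log2 CPM) than those did with each other (0.969), and the fortified pairs had 0.967 to 0.980. It correlated better with each fortified library (0.943, 0.939 and 0.935 with fortified wild type 1, 2 and 3) than with its own group. Xist was present in moderate wild type 1 and fortified wild type 1 and Y-linked transcripts in moderate wild type 2 and 3 and fortified wild type 3, while fortified wild type 2 held neither. Rsg1 itself differed little, with 0.692, 0.488 and 0.964 CPM (counts scaled to library size) at moderate and 1.02, 0.725 and 0.895 CPM at fortified folic acid.

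By edgeR's quasi-likelihood test 4 genes rose at fortified folic acid (0.0263% of those tested) and 0 fell, at a Benjamini-Hochberg adjusted p under 0.05. The 4 were the chemerin receptor Cmklr1, the collagen-folding enzyme Fkbp14, the COPII coat subunit Sec24d and the secreted glycoprotein Dkk3. The short list stands beside a broad shift at unadjusted p under 0.05, which 2984 genes passed (19.6%), 1468 with higher values at fortified folic acid (9.67%) and 1516 with lower ones (9.98%). The groups did not overlap for 3134 genes (20.6%), with fortified libraries above for 1665 (11%) and below for 1469 (9.67%). Many genes sat just past the threshold, since 75 had an adjusted p under 0.055 and 531 one under 0.1. Without moderate wild type 1 the same test called 487 genes higher (3.17%) and 525 lower (3.42%), and with all libraries DESeq2 called 617 higher (4.15%) and 538 lower (3.62%). Leaving out moderate wild type 2 gave 89 genes higher and 15 lower, leaving out moderate wild type 3 gave 2 and 0, and leaving out any 1 fortified library gave 1 and 0. The median log2 fold change of all tested genes was -0.04, with 46.8% of them above 0 and 53.2% below.

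Cmklr1 encodes a G protein-coupled receptor for the chemoattractant and adipokine chemerin, and lies at chr5:113612354-113650426 on the minus strand of mm10. It measured 7.96, 6.09 and 6.72 CPM in the 3 moderate libraries and 28.4, 29.2 and 30.9 CPM in the 3 fortified ones. Values within a group lay close together and the groups were far from overlapping. The mean went from 6.93 ± 0.950 CPM to 29.5 ± 1.26 CPM (SD, n = 3 each), a log2 fold change of 2.09 (SE 0.173, edgeR adjusted p = 0.00086). In mutant cells Cmklr1 also rose, with a log2 fold change of 0.80 (adjusted p = 0.0245), from 15, 18.5 and 14.6 CPM to 24.9, 29.8 and 29.2 CPM. The fortified libraries of both genotypes thus reached like levels, while the moderate wild type libraries lay below the moderate mutant ones. The unadjusted p for the difference between the genotypes' changes was 0.000158 by edgeR, and after adjustment over all genes it was 0.708.

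Dkk3 belongs by sequence to the Dickkopf family of secreted proteins, whose other members inhibit Wnt signalling, and lies at chr7:112116017-112159057, minus strand. Its values were 24.8, 27.1 and 22.2 CPM at moderate and 117, 100.8 and 149 CPM at fortified folic acid. The lowest fortified library was more than 3 times as high as any moderate one. The log2 fold change was 2.31 (SE 0.308, adjusted p = 0.0328), the largest among the 4 genes. In mutant cells it was 0.88 and did not pass (adjusted p = 0.0905). The wild type value rests on all but 2 of the libraries: the adjusted p was 0.162 without moderate wild type 3 and 0.138, 0.0890 and 0.0956 without fortified wild type 1, 2 and 3.

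Fkbp14 is a peptidyl-prolyl isomerase of the endoplasmic reticulum that helps procollagens fold, at chr6:54577604-54597308, minus strand. It measured 25, 25.5 and 25.7 CPM at moderate and 56.5, 64.6 and 54.5 CPM at fortified folic acid, with a log2 fold change of 1.21 (SE 0.138, adjusted p = 0.0140). The moderate libraries were nearly equal, moderate wild type 1 included. Fkbp14 rose in mutant cells as well, by 0.82 on the log2 scale (adjusted p = 0.0125). In wild type cells its adjusted p was 0.0579 without moderate wild type 3 and 0.0918, 0.0890 and 0.0582 without fortified wild type 1, 2 and 3, with log2 fold changes from 1.13 to 1.25 over the libraries left out.

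Sec24d is a cargo-binding subunit of the COPII coat, needed in skeletal tissues for the export of procollagen, and lies at chr3:123267455-123365641 on the plus strand. It had 103, 106 and 89.8 CPM at moderate and 229.8, 234 and 211 CPM at fortified folic acid, a log2 fold change of 1.18 (SE 0.148, adjusted p = 0.0228). The libraries of each group lay close together and the groups were apart. In mutant cells the log2 fold change was 0.63 (adjusted p = 0.0333). As with Fkbp14, the wild type call was lost without moderate wild type 3 (adjusted p = 0.131) or without fortified wild type 1, 2 or 3 (0.138, 0.0890 and 0.0767).

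**Figure D1:**
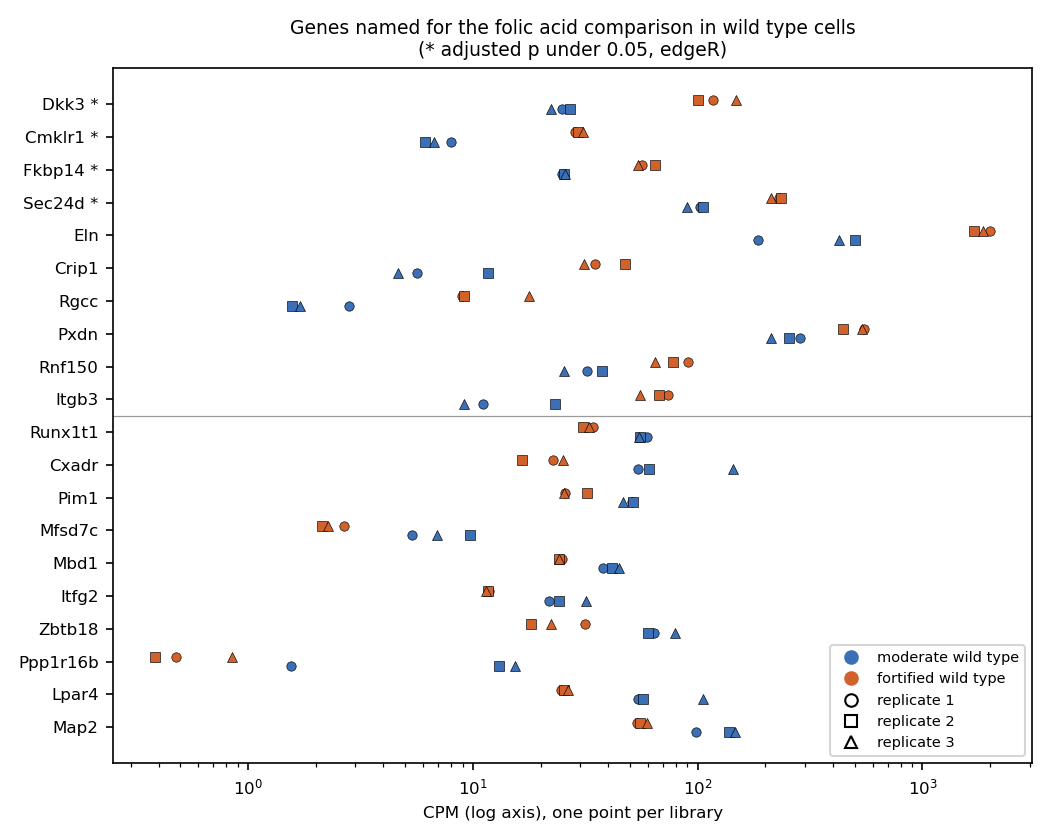
CPM of 20 genes in the 6 wild type libraries on a log axis, 1 point per library; genes above the line had higher and those below it lower values at fortified folic acid, and the asterisk marks the 4 that passed. Only genes whose groups did not overlap were taken, so by this choice the 3 orange fortified points lie on 1 side of the 3 blue moderate points.

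Many further genes lay just outside the threshold. The 6 with higher values given here were taken by smallest p among genes whose groups did not overlap. Each had an adjusted p of 0.0503. Other genes with higher values, such as Col11a1 and P3h1, had the same adjusted p. Together with the 4 that passed, 58 genes with higher values had an adjusted p under 0.055. Elastin (Eln), the core of elastic fibres, had 185, 503 and 424 CPM at moderate and 2003, 1700.3 and 1863 CPM at fortified folic acid (log2 fold change 2.32, SE 0.345). Crip1, a small LIM-domain protein, had 5.67, 11.7 and 4.63 CPM and 35, 47.7 and 31.2 CPM, and Rgcc, a regulator of the cell cycle, 2.81, 1.57 and 1.7 CPM and 8.97, 9.11 and 17.7 CPM. The peroxidase Pxdn, which crosslinks collagen IV, had 286, 254 and 212 CPM and 551, 442 and 539 CPM. For all of these the lowest fortified library exceeded the highest moderate one, which the choice of genes required. Itgb3, the beta3 integrin chain that pairs into vitronectin receptors, had log2 fold change 2.18, and the RING finger membrane protein Rnf150 had 1.29. In mutant cells Crip1 (2.39, adjusted p = 0.00977) and Rgcc (1.91, adjusted p = 0.0216) rose as well, whereas Itgb3 (0.90, adjusted p = 0.125), Eln (0.25), Pxdn (0.03) and Rnf150 (0.33) had positive values that did not pass.

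In the downward direction 10 genes were taken by smallest p among those whose groups did not overlap, and none passed. The adjusted p ran from 0.0503 to 0.0539. The corepressor Runx1t1 had 59.6, 55.4 and 54.6 CPM at moderate and 34.3, 31 and 32.9 CPM at fortified folic acid (log2 fold change -0.79), and the kinase Pim1 had 51, 51.8 and 46.7 CPM and 25.6, 32.3 and 25.6 CPM (-0.84). Mbd1, a reader of methylated CpG, had 38, 41.6 and 44.7 CPM and 24.9, 24.2 and 24.2 CPM (-0.76). The cell adhesion molecule and virus receptor Cxadr had 54.2, 60.5 and 144 CPM and 22.7, 16.5 and 25.2 CPM (-2.01), with moderate wild type 3 far above the other moderate libraries. The groups of each of these genes were clear of each other, as the choice of genes required. Ppp1r16b, a regulatory subunit of protein phosphatase 1, had 1.56, 13.1 and 15.4 CPM and 0.48, 0.385 and 0.851 CPM, so that moderate wild type 1 was much nearer to the fortified libraries than moderate 2 and 3 were. The others were Mfsd7c (-1.63), Itfg2 (-1.16), the zinc finger repressor Zbtb18 (-1.50), the lysophosphatidic acid receptor Lpar4 (-1.50) and the microtubule protein Map2 (-1.18). In the mutant comparison Runx1t1, Pim1, Mbd1, Cxadr, Mfsd7c, Itfg2, Zbtb18 and Ppp1r16b fell with an adjusted p under 0.05, and Lpar4 and Map2 were negative without passing. Mutant log2 fold changes had the sign of the wild type ones for all 20 genes.

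Genes of the extracellular matrix formed the broadest group with higher values at fortified folic acid. Over 5 lists of matrix genes, 162 tested genes in all, 135 had a positive log2 fold change and 74 had an unadjusted p under 0.05 with higher values, against 2 with lower ones. Of all tested genes 46.8% were positive, and 9.67% and 9.98% reached that p with higher and lower values. The fortified libraries lay wholly above the moderate ones for 73 of the 162 and wholly below for 1 (11% and 9.67% of all genes). Only Fkbp14 of the 162 passed the adjusted threshold of the edgeR test. The median log2 fold change was 0.73 over these genes. Summed markers of skeletal muscle had 6100, 2227 and 2286 CPM in moderate and 1977, 1063 and 3405 CPM in fortified libraries, so the groups overlapped. The median log2 fold change of the muscle list, -0.84, became -0.06 without moderate wild type 1. The part of these markers in the matrix result was not tested. Fewer matrix-producing cells and less matrix RNA per cell cannot be told apart in bulk RNA.

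Of 44 collagen chains 36 had positive values, with a median of 0.74. An unadjusted p under 0.05 was reached by 16 of the 44 with higher values (36.4%, against 9.67% of all genes). It was reached by 1, Col19a1, with lower values (2.27%, against 9.98%). This gene was singled out after its values were seen and was highest in moderate wild type 1. Col1a1, the alpha1 chain of collagen I, had 2323, 4658 and 1436 CPM at moderate and 13919, 9121 and 10526 CPM at fortified folic acid (log2 fold change 2.00, SE 0.386, adjusted p = 0.0539). Its partner Col1a2 had 1241, 3779 and 2165 CPM and 9473, 6416 and 7470.2 CPM. Both chains of collagen I were at least 1.5 times as high in the lowest fortified as in the highest moderate library. Col3a1 had 1498, 1037 and 1093 CPM and 3768, 2457 and 3699 CPM (1.45, adjusted p = 0.0539). Col11a1, a minor fibrillar chain that nucleates fibrils, had 385, 231 and 222 CPM and 851, 659 and 803 CPM (1.46, adjusted p = 0.0503). The microfibrillar chains Col6a2 (2.07) and Col6a3 (2.23) had log2 fold changes above 2 and adjusted p of 0.0561 and 0.0539. The list's median was 1.61 without moderate wild type 1, when 15 of the 44 chains passed with higher values (34.1%, against 3.17% of all genes). It was 0.67 without moderate wild type 3.

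Enzymes and chaperones that fold, trim and crosslink procollagen also had mostly higher values. Of 31 genes 29 were positive (median 0.76). At an unadjusted p under 0.05, 22 were higher (71%, against 9.67% of all genes) and 1 lower (3.23%, against 9.98%). The groups were apart, fortified above, for 22 (11% of all genes). P3h1, the prolyl 3-hydroxylase of the collagen I complex, had 98, 127 and 96.9 CPM at moderate and 202, 204 and 193 CPM at fortified folic acid (0.89, adjusted p = 0.0503). Serpinh1, the collagen chaperone HSP47, had 1815, 1552 and 1619.8 CPM and 2850.3, 3124 and 2678 CPM (0.79, adjusted p = 0.0583). The propeptide-cleaving proteases Adamts2 and Adamts14 had log2 fold changes of 2.55 and 1.11, both with adjusted p = 0.0503. The exception was P3h2, another prolyl 3-hydroxylase, singled out after its values were seen, with 15.4, 24.9 and 16.1 CPM and 10.4, 11.5 and 6.92 CPM (-0.96). The median was 0.76 without moderate wild type 1 as well, and 10 genes then passed with higher values (32.3%, against 3.17% of all genes). It was 0.65 without moderate wild type 3.

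Elastic fibre and matricellular genes were positive for 31 of 35 tested genes (median 0.82). At an unadjusted p under 0.05, 20 were higher (57.1%, against 9.67% of all genes) and 0 lower (9.98% of all genes). Beside Eln, the elastic fibre proteins Emilin1 (88.8, 81.3 and 76 CPM against 242, 196 and 328 CPM) and Mfap4 (92.2, 119 and 165 CPM against 633, 368 and 699 CPM) had adjusted p of 0.0539 and 0.0539. Thbs4, a thrombospondin of tendon and muscle attachment, had 10.6, 8.2 and 15 CPM and 88.2, 146 and 226 CPM, a log2 fold change of 3.77 (SE 0.627, adjusted p = 0.0503). Tenascin-N (Tnn) was under 1 CPM in every moderate library and had 12.9, 7.84 and 12.4 CPM at fortified folic acid (3.93, adjusted p = 0.0503). For both genes the groups were far apart, although the fortified libraries of Thbs4 differed widely among themselves. The list's median without moderate wild type 1 was 1.01, and 10 genes passed with higher values (28.6%, against 3.17% of all genes).

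Small leucine-rich proteoglycans, which coat and space collagen fibrils, had a median of 1.38, with 12 of 14 positive. Fibromodulin (Fmod) had 35, 16.7 and 4.15 CPM and 103, 92.4 and 178 CPM (2.74, adjusted p = 0.0839), and decorin (Dcn) 26.2, 59.2 and 65.5 CPM and 141, 131 and 163 CPM (1.53, adjusted p = 0.11). Asporin (Aspn) had 66.7, 60.3 and 285 CPM and 439, 441 and 459 CPM, so moderate wild type 3 stood nearer to the fortified libraries than the other moderate ones did. Prelp (2.94) and lumican (Lum, 2.65) also had groups that did not overlap. Among 38 matrix proteases and their inhibitors 27 were positive (median 0.37). Of the 38, 9 had an unadjusted p under 0.05, all higher (23.7%, against 9.67% of all genes). These included the gelatinase Mmp9 (13.5, 7.38 and 7.11 CPM against 34.2, 29.2 and 33.6 CPM), Mmp23 (2.60), the membrane protease Mmp14 (0.97) and the aggrecan-degrading Adamts4 (1.76). The protease median was 0.67 without moderate wild type 1, and 9 of the 38 passed with higher values (23.7%, against 3.17% of all genes). In the same setting 2 of the 14 proteoglycans passed (14.3%). The protease median was 0.28 without moderate wild type 3.

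**Figure D2:**
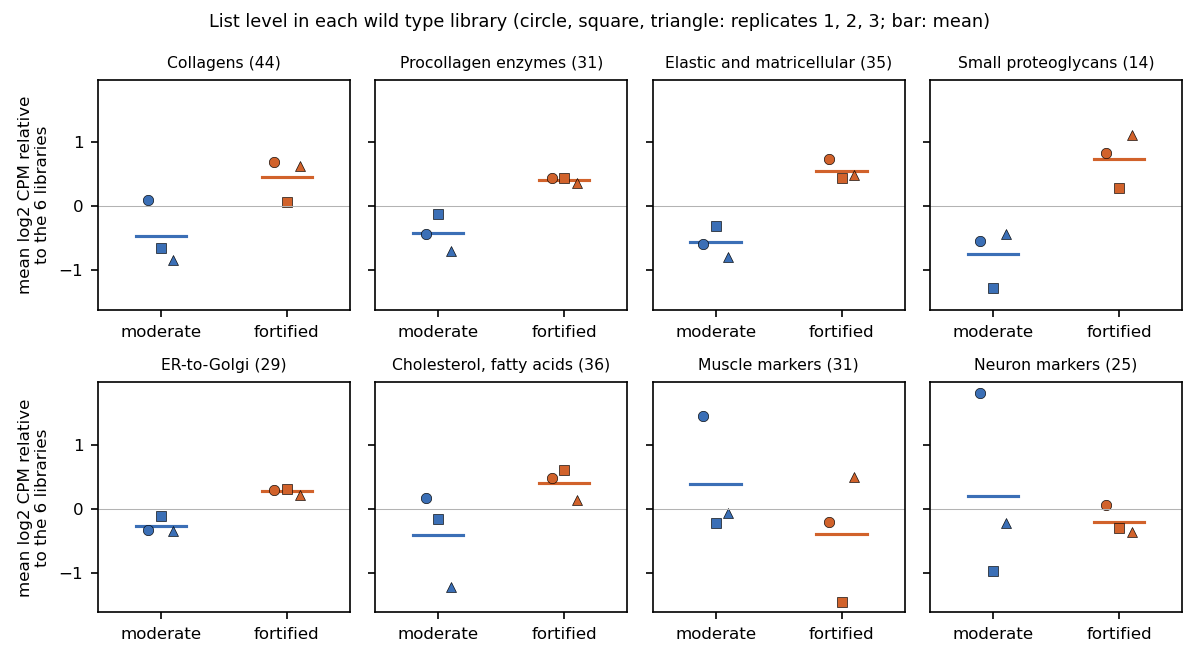
Level of 8 gene lists in each wild type library, as the mean over the list's tested genes of log2 CPM minus the gene's mean over the 6 libraries; the shapes are replicates 1, 2 and 3, the bars group means, and the number of genes is in brackets. Fortified libraries lie above all moderate ones for procollagen enzymes, elastic and matricellular genes, small proteoglycans and ER-to-Golgi genes, while 1 moderate library (replicate 1, circle) is highest for muscle markers at 1.45 and neuron markers at 1.81.

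Because Sec24d rose, a list of COPII coat subunits, cargo receptors and regulators of export from the endoplasmic reticulum to the Golgi was drawn up after its value was known, and it is given as a description. Of 29 tested genes 25 were positive (86.2%, against 46.8% of all genes), with a median log2 fold change of 0.54. An unadjusted p under 0.05 was reached by 18, all higher (62.1%, against 9.67% of all genes). The groups were apart, fortified above, for 17 (11% of all genes). Apart from Sec24d none passed the adjusted threshold with all libraries. Without moderate wild type 1, 11 genes of the list passed with higher values (37.9%, against 3.17% of all genes). The retrieval receptor for resident proteins Kdelr3 had 39.6, 62.8 and 41.4 CPM at moderate and 118, 122 and 126 CPM at fortified folic acid (1.35, adjusted p = 0.0503). The membrane-bound transcription factor Creb3l2, known to drive Sec23a in cartilage, had 65.5, 69.1 and 59.5 CPM and 108, 104 and 117 CPM (0.76, adjusted p = 0.0539). The cargo receptor Surf4 had 0.84 and the vesicle SNARE Sec22b 0.71. Members of the same coat, taken after their values were seen, were unlike: Sec24a (0.26), Sec24b (-0.11) and Sec24c (0.26), the paralogs of Sec24d, and Sec23b (-0.03), the paralog of Sec23a (0.54), had overlapping groups. Sec31a (0.57) of the outer coat and Sar1a (0.46), the GTPase that starts the coat, had fortified values above all moderate ones.

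RefSeq promoter windows of mm10 (GRCm38.p6), 250 bases before to 50 after the gene start, were at hand for 25 of these 29 genes. They were searched on both strands for TGACGTGG (reverse complement CCACGTCA), the core of the element bound by XBP1, ATF6 and related factors of the secretory pathway; the motif was chosen after some of the sequences had been looked at. It occurred for 4 of the 25 genes (16%), against 193 of 27025 genes with a window, expressed or not (0.714%). As list and motif were chosen with values or sequences in view, this excess cannot be weighed. The 4 genes were Sec24d, Sec16b, Sec23a and Kdelr3, and all 4 had fortified values above all moderate ones, as had 17 of the 29 genes of the list. The 30 bases around each match are shown because the matches are in the genes of the coat itself and of the retrieval receptor, 5′ to 3′ on the gene's strand with the match in capitals.
Sec24d, chr3:123267459-123267488, plus strand: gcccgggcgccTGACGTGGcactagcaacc
Sec16b, chr1:157506741-157506770, plus strand: ttctgtgtggcTGACGTGGcacggcagttt
Sec23a, chr12:59011993-59012022, minus strand: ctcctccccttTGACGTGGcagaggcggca
Kdelr3, chr15:79516367-79516396, plus strand: tggccgccccgCCACGTCAccgcgcggcca
The first base of the match lay at -26 relative to the RefSeq start of Sec24d, -44 of Sec16b, 7 of Sec23a and -30 of Kdelr3, where the match is on the other strand. Of genes with a window, the motif was also found for 1 of 21 procollagen enzymes (4.76%) and 0 of 35 collagen chains. A match is a description of these letters, and factor binding was not assayed.

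Genes of cholesterol and fatty acid synthesis were positive without exception, 36 of 36, with a median log2 fold change of 0.66. Of all tested genes 46.8% were positive. An unadjusted p under 0.05 was reached by 17, all higher (47.2%, against 9.67% of all genes). The groups were apart, fortified above, for 11 (11% of all genes). The stearoyl-CoA desaturase Scd2 had 1152, 1044 and 552 CPM at moderate and 2353, 2047 and 1931 CPM at fortified folic acid (1.20, adjusted p = 0.0688), and Scd1 184, 266 and 80.4 CPM and 418, 405 and 332 CPM (1.12, adjusted p = 0.113). The fatty acid desaturases Fads1 and Fads2 had 0.83 and 1.11, and Srebf1, the transcription factor for fatty acid synthesis, had 0.67 (adjusted p = 0.0691). Moderate wild type 3 had the lowest list level of the 6 libraries and moderate wild type 1 the highest of its group. The median was 0.37 without the former and 0.97 without the latter, when 13 of 36 passed with higher values (36.1%, against 3.17% of all genes). Promoter windows, found for 25 of the genes, held CCAAT on either strand for 21 (84%) against 41.1% of all genes with a window. That background includes genes not expressed, whereas the list holds tested genes only, so this excess cannot be weighed. The sterol element TCACNCCAC was found for 1 (4%) against 1.44%. It was found for 8% of ER-to-Golgi genes, 5.71% of collagen chains and 0% of procollagen enzymes with a window.

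Folate uptake and one-carbon enzymes, the genes nearest to the vitamin, had values of both signs, more of them lower. Of 46 listed genes 39 were tested, and 7 (Folr2, Ftcd, Mat1a, Bhmt, Bhmt2, Gnmt and Dmgdh) were too low. The median was -0.20 with 15 positive, and 0 passed the adjusted threshold. At an unadjusted p under 0.05, 3 had higher values (7.69%) and 8 lower ones (20.5%), against 9.67% and 9.98% of all genes. Genes of uptake had values that overlapped: the reduced folate carrier Slc19a1 had 13.1, 22.8 and 17.6 CPM and 14.9, 18 and 15.4 CPM, the proton-coupled transporter Slc46a1 3.83, 8.66 and 4.45 CPM and 7.31, 6.37 and 7.31 CPM, and the receptor Folr1 was below 2 CPM in every library. The same held for thymidylate synthase, Tyms, with 62.8, 28.5 and 32.3 CPM and 39.2, 50.7 and 47 CPM.

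Members with groups that did not overlap included enzymes of methionine synthesis and of the cytosolic serine step. Methionine synthase Mtr had 50.3, 38.8 and 46.9 CPM at moderate and 34.6, 31.1 and 29.4 CPM at fortified folic acid (-0.52, adjusted p = 0.182), and its reductase Mtrr 26.4, 48.1 and 44.1 CPM and 20.7, 24.7 and 18.8 CPM (-0.89, adjusted p = 0.0941). Shmt1, the cytosolic serine hydroxymethyltransferase, had 32.5, 22.6 and 30.2 CPM and 10.6, 14.9 and 9.38 CPM (-1.29, adjusted p = 0.106). All 3 had lower values in every fortified library. In the other direction stood Sardh, the mitochondrial sarcosine dehydrogenase (13.7, 16.2 and 14.5 CPM against 29.3, 24 and 51.6 CPM), and Mat2b, the regulatory subunit of methionine adenosyltransferase (0.41). Mitochondrial enzymes that also respond to amino acid stress split the moderate group instead: Aldh1l2 had 22.2, 246 and 400.2 CPM at moderate and 226, 141 and 200.1 CPM at fortified folic acid, Shmt2 96.2, 387 and 407 CPM and 216, 213 and 209 CPM, and Mthfd2 84.5, 186 and 242 CPM and 129, 129 and 137 CPM. In each, moderate wild type 1 was the lowest of the 6 libraries and the groups overlapped. The trifunctional cytosolic enzyme Mthfd1 (-0.44) and the formyltetrahydrofolate dehydrogenase Aldh1l1 (1.59) overlapped too. The list's median was -0.04 without moderate wild type 3, -0.32 without fortified wild type 1 and -0.35 without fortified wild type 2. Without moderate wild type 1 the median was -0.32, and 4 genes passed, all lower (10.3%, against 3.42% of all genes).

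Among 18 genes that write, erase or read DNA methylation 2 were positive (median -0.12, or -0.25 without moderate wild type 2). Mbd1 had the smallest p. Dnmt3b, a de novo methyltransferase, had 5.97, 4.32 and 5.58 CPM at moderate and 2.94, 2.38 and 4.12 CPM at fortified folic acid (-0.75, adjusted p = 0.185). The maintenance enzyme Dnmt1 had 269, 114 and 93.6 CPM and 174, 156 and 138 CPM, with moderate wild type 1 above every other library, and Dnmt3a 165, 82.3 and 121 CPM and 141, 99.5 and 179 CPM. Dnmt3l was at 0 in all fortified libraries and in moderate wild type 1, and at 0.643 and 1.24 CPM in moderate wild type 2 and 3. Imprinted genes, whose expression depends on parental methylation, were evenly divided (17 of 34 positive, median -0.00) with all libraries, but without moderate wild type 1 there were 24 of 34 positive and the median was 0.27. Ppp1r9a (-1.31, adjusted p = 0.0881) and Plagl1 (-0.44) had lower values, Zrsr1 (0.67) higher.

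Signalling lists were mixed. Of 54 Wnt genes 41 were positive (75.9%, against 46.8% of all genes, median 0.35), and Dkk3 alone passed. At an unadjusted p under 0.05, 14 were higher (25.9%) and 2 lower (3.7%), against 9.67% and 9.98% of all genes. The ligand Wnt16 had 14.2, 11 and 8.74 CPM and 22.2, 24.8 and 35.2 CPM, the Wnt agonist Rspo2 12.1, 9.56 and 7.73 CPM and 21.7, 27.7 and 25.7 CPM, and the R-spondin receptor Lgr5 2.16, 0.874 and 1.77 CPM and 30.6, 6.26 and 21 CPM, with adjusted p of 0.0607, 0.0655 and 0.0682. The antagonist Dkk2 had 1.33. The Wnt median was 0.62 without moderate wild type 1, when 12 passed with higher values (22.2%, against 3.17% of all genes). It was 0.20 without moderate wild type 3. In the Hedgehog pathway, which needs the primary cilium, 19 of 30 genes were positive (median 0.20). The target genes Ptch1 (26.7, 10.9 and 10.5 CPM against 16.5, 13.9 and 11.8 CPM) and Gli1 (2.03, 1 and 1.47 CPM against 8.51, 0.861 and 6.07 CPM) had overlapping groups, and the ligand-binding inhibitor Hhip had 30, 50.4 and 15.1 CPM and 10.1, 9.54 and 9.82 CPM (-1.70, adjusted p = 0.101). Among 63 genes of the CPLANE complex, intraflagellar transport and basal body 8 had higher and 3 lower values at an unadjusted p under 0.05 (median 0.07), against 9.67% and 9.98% of all genes, so these counts are near or below the background.

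Neural tube closure genes had 0 higher and 4 lower at an unadjusted p under 0.05, of 33 tested (median -0.09). They were led by Marcksl1, an actin-binding substrate of protein kinase C (431, 328 and 403 CPM against 245, 245 and 299.8 CPM), and the nucleolar protein Tcof1 (-0.60). The Hox clusters had 1 higher and 5 lower of 38 (median -0.06), with Hoxb9 at 88.7, 68.9 and 60.5 CPM and 44, 48.4 and 34.9 CPM. These shares of lower values are near the 9.98% over all genes. With 1 library left out the medians ran from -0.22 to -0.04 for neural tube closure, -0.29 to 0.18 for Hox, -0.01 to 0.16 for the cilium list and 0.05 to 0.28 for Hedgehog genes.

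In the stress lists moderate wild type 1 often stood apart from moderate wild type 2 and 3. ATF4 and unfolded protein response genes had a median of -0.28. At an unadjusted p under 0.05, 2 of 38 were higher (5.26%) and 3 lower (7.89%), against 9.67% and 9.98% of all genes. Leaving out moderate wild type 3 brought the median to -0.02, and leaving out moderate wild type 1 to -0.46, when 7 of 38 fell (18.4%, against 3.42% of all genes) and 1 rose. Xbp1, the transcription factor for secretory capacity, had 71.9, 55.1 and 41.5 CPM at moderate and 108, 123 and 106 CPM at fortified folic acid (1.00, adjusted p = 0.0539), and Edem1, which clears misfolded glycoproteins, had 0.82. The stress factors Atf3 (19.8, 48.5 and 35.8 CPM against 4.82, 13.8 and 7.25 CPM) and Ddit3 (10.8, 295 and 406 CPM against 36.3, 25.9 and 38.2 CPM) had lower mean values, Ddit3 with moderate wild type 1 below every fortified library. The list thus holds members of opposite sign. Of 23 p53 targets 4 were positive (median -0.29, or -0.43 without moderate wild type 1). At an unadjusted p under 0.05, 0 had higher values (9.67% of all genes) and 6 had lower values (26.1%, against 9.98% of all genes). Among the 6 were the DNA damage gene Gadd45a (15.3, 163 and 189 CPM against 29.6, 17.8 and 37.2 CPM) and the p53 ubiquitin ligase Mdm2 (193, 357 and 340.1 CPM against 165, 216 and 139 CPM). In both, moderate wild type 1 was like the fortified libraries or nearer to them than moderate 2 and 3.

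Growth and energy lists had small shifts. Respiratory chain genes were positive in 62 of 75 cases, with a median of 0.17, and 11 had an unadjusted p under 0.05 with higher values (14.7%, against 9.67% of all genes). The complex I subunit Ndufa13 had 68.1, 60.8 and 65.5 CPM at moderate and 82.7, 109.7 and 128 CPM at fortified folic acid (0.72, adjusted p = 0.0881). Ribosomal proteins had a median of 0.14 over 78 genes, DNA replication genes -0.08 over 45 and mitosis genes 0.30 over 40. These medians rest on single libraries. Leaving out 1 library at a time, the respiratory median ran from 0.08 (without moderate wild type 2) to 0.35 (without moderate wild type 3). The ribosomal median ran from -0.03 to 0.56 without the same libraries. The replication median ran from -0.26 without moderate wild type 2 to 0.16 without moderate wild type 1, and the mitosis median from -0.00 without moderate wild type 3 to 0.81 without moderate wild type 1.

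**Figure D3:**
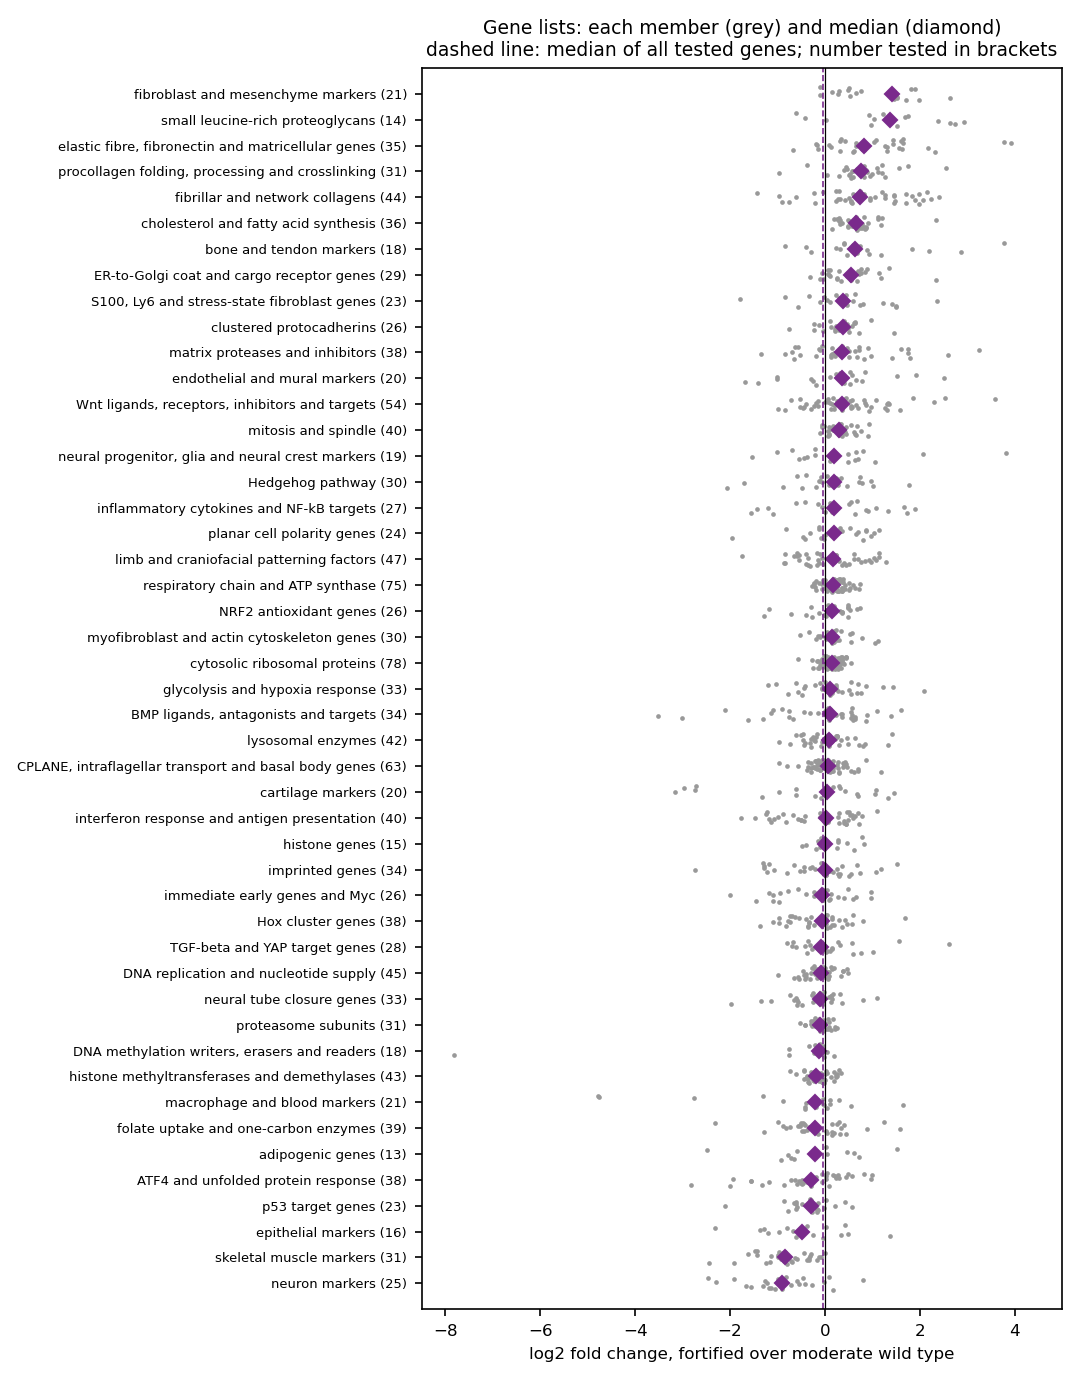
Log2 fold change, fortified over moderate wild type, of every tested gene of 47 lists (grey points) and the list's median (diamond), sorted by median, with the number of tested genes in brackets; the dashed line is the median of all tested genes, -0.04. Fibroblast markers, small proteoglycans, elastic fibre genes, procollagen enzymes, collagens and cholesterol genes lie at the top with medians from 0.66 to 1.41, and muscle and neuron markers at the bottom with -0.84 and -0.90.

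The cultures were checked against markers of fibroblasts and of other cells that an embryo can contribute. The 21 fibroblast and mesenchyme markers, which include collagen chains, summed to 13821 to 26807 CPM in moderate and 36724 to 46838 CPM in fortified libraries, and their median log2 fold change was 1.41 (1.05 without moderate wild type 1 and 0.80 without fortified wild type 2). The mesenchymal transcription factor Prrx1, which is not a matrix gene, had 315, 374 and 296 CPM at moderate and 623, 530.1 and 521 CPM at fortified folic acid (0.76, adjusted p = 0.116). Neuron markers summed to 248 to 739 CPM and 228 to 254 CPM. The medians of the muscle and neuron lists, -0.84 and -0.90, became -0.06 and 0.40 without moderate wild type 1 (the muscle median was -0.41 without fortified wild type 2 and -1.46 without fortified wild type 3). Moderate wild type 1 held 307 CPM of the muscle regulator Myog against 60.7 and 100.5 in the others of its group. Endothelial and mural markers summed to 693 to 893 CPM and 907 to 1214 CPM, but the defining endothelial genes Pecam1 and Cdh5 were under 1 CPM in every library, as was the epithelial Epcam. The macrophage and blood markers summed to 66.1 to 248 CPM and 89.5 to 229 CPM, and cartilage markers to 442 to 1093 CPM and 968 to 1362 CPM. Whether other cell types had a part in the matrix result was not tested.

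The mutant libraries allowed each gene to be set beside a second pair of groups. The 2 comparisons are not fully separate, since the p-values of both used a spread estimated over all 12 libraries. At the adjusted threshold 1053 genes changed in them (6.93%), and 53% had a log2 fold change above 0. Of the 1468 genes with higher values at unadjusted p under 0.05 in wild type cells 1330 were also positive in mutant cells (90.6%), against 73.1% of all genes that were positive in wild type. Of the 1516 with lower values 1374 were also negative (90.6%), against 64.7%. Of the 2984 together, 510 passed in mutant cells with the same sign and 0 with the opposite sign. Over all 15186 tested genes these counts were 1010 and 43. Median log2 fold changes of the former set were 0.82 in wild type and 0.53 in mutant cells, and of the latter -0.71 and -0.53.

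Matrix genes had larger log2 fold changes in wild type than in mutant cells, but no gene passed the test of that difference. By edgeR's interaction test 0 of 15186 genes passed (0%), 1015 had an unadjusted p under 0.05 (6.68%), and DESeq2 called 5. Of the 162 matrix genes 45 had an unadjusted interaction p under 0.05 (27.8%), and in all 45 the wild type change was the more positive. The medians over these genes were 0.73 in wild type and 0.14 in mutant cells. For collagens the count was 18 of 44 (medians 0.74 and 0.09) and for elastic and matricellular genes 14 of 35 (0.82 and 0.12). Col11a1 had 1.46 in wild type and -0.14 in mutant cells (a difference of 1.60, SE 0.333), Eln 2.32 and 0.25 (2.08, SE 0.47) and Col1a1 2.00 and 0.52 (1.47, SE 0.529). The fortified mutant libraries were unlike each other, at 4.34, 48.1 and 57.5 on the first component of all 12 libraries. Fortified mutant 1, 2 and 3 had 553, 513 and 393 CPM of Col11a1, 1625, 848 and 1403 CPM of Eln and 7639, 5093 and 4934 CPM of Col1a1. The part of fortified mutant 2 and 3 in the smaller mutant changes was not tested. ER-to-Golgi genes had medians of 0.54 and 0.30, with 6 of 29 at that p.

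The opposite order held for several housekeeping lists. Cholesterol genes had a median of 0.66 in wild type and 1.15 in mutant cells. An unadjusted interaction p under 0.05 was reached by 3 of 36 (8.33%), near the 6.68% of all genes. Respiratory chain genes had 0.17 and 0.81 (43 of 75), proteasome subunits -0.10 and 0.44 (18 of 31), ribosomal proteins 0.14 and 0.81 (15 of 78), and mitosis genes 0.30 and 1.15 (11 of 40). In these lists every gene at that p had the more positive change in mutant cells. Without moderate wild type 1 the counts became 0 of 36 for cholesterol genes, 40 of 75 for the respiratory chain, 18 of 31 for the proteasome, 40 of 78 for ribosomal proteins and 4 of 40 for mitosis genes. The wild type median of cholesterol genes was then 0.97. No member of these lists passed after adjustment over all genes.

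**Figure D4:**
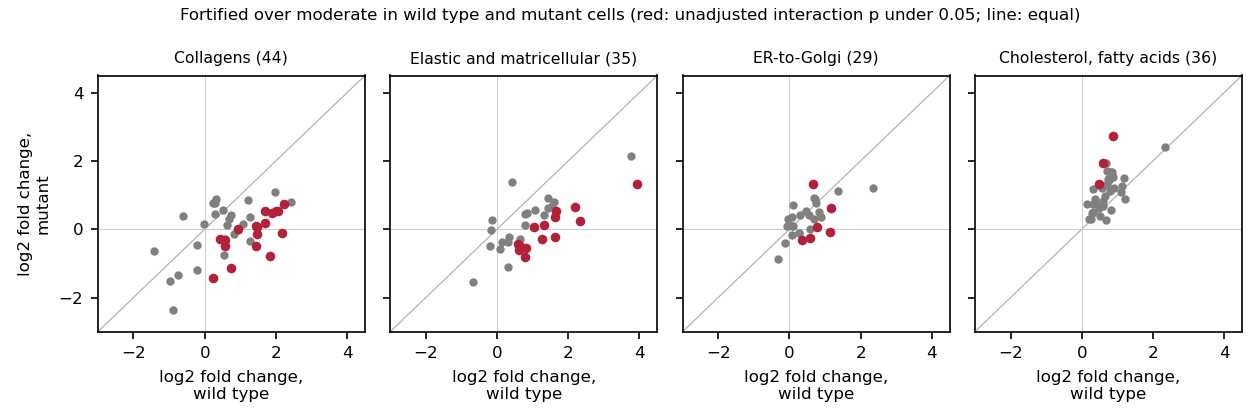
Log2 fold change, fortified over moderate, of each tested gene in wild type (horizontal) and mutant cells (vertical) for 4 lists, with the line of equal change; red points have an unadjusted interaction p under 0.05. Most collagens and elastic and matricellular genes lie below the line, and most cholesterol genes above it.

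The number of genes called depended strongly on the settings, while the sign of the 4 genes did not. In all 21 alternative settings run Cmklr1, Dkk3, Fkbp14 and Sec24d kept a positive log2 fold change. Cmklr1 passed in all of them but 1, the fit on the 6 wild type libraries alone (adjusted p = 0.0596), in which 0 genes were called. Sec24d passed in 12 of the 21, Fkbp14 in 14 and Dkk3 in 13. Against a 1.5-fold change by glmTreat, Cmklr1 alone passed. Calls by DESeq2 within lists were 15 of 44 collagens, 15 higher and 1 lower of 31 procollagen enzymes, 12 of 35 elastic and matricellular genes, 15 of 29 ER-to-Golgi genes and 6 of 36 cholesterol genes, against 4.15% higher and 3.62% lower of all genes with an adjusted p from DESeq2.

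**Figure D5:**
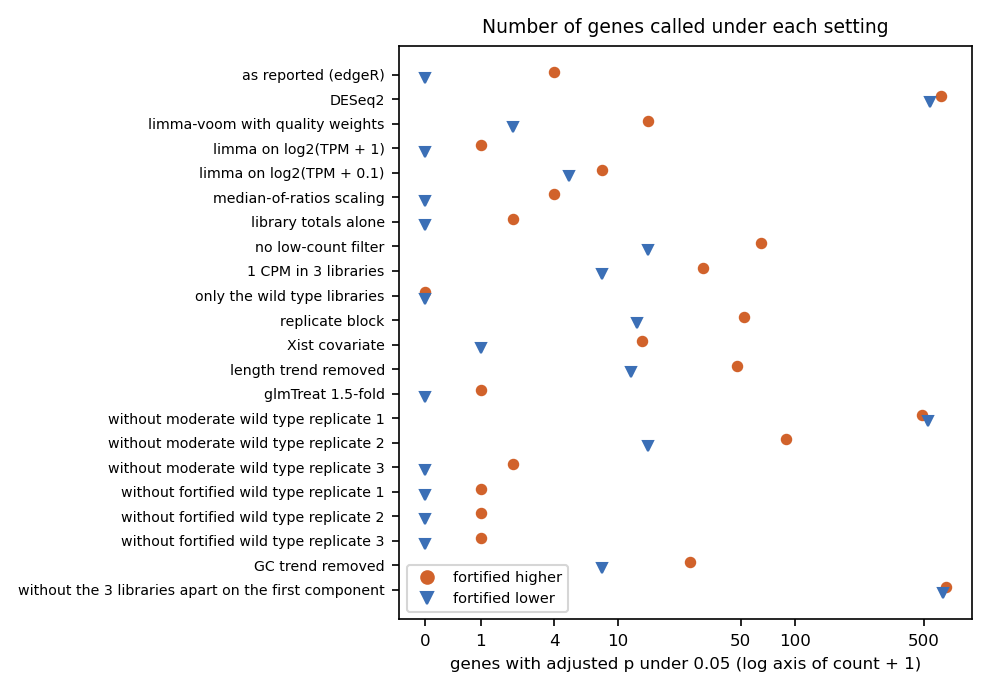
Number of genes with an adjusted p under 0.05 in the wild type comparison under each setting, on a log axis of the count plus 1, with orange circles for genes higher and blue triangles for genes lower at fortified folic acid. The counts run from 0 with only the wild type libraries to 617 and 538 with DESeq2 and 660 and 638 without 3 libraries that stood apart.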

How the data were processed

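RNA sequencing of polyadenylated RNA was measured in 12 libraries, 3 per group. The deposited table held expected counts (estimated counts per gene, not whole) and TPM per library. Per its name the table came from salmon, and per the submitters' processing notes the build was mm10; no source used here gives the tool's version or the annotation. The deposited TPM values, made by the authors with length scaling, served only as an alternative. A column was tied to its diet by the column number in the submitters' sample descriptions.

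Expected counts were rounded, and genes kept by filterByExpr (minimum count 10, total 15). All 12 libraries were fitted in edgeR 4.0.16 (R 4.3.3) with TMM scaling and a mean per group, followed by the quasi-likelihood test, which gave every adjusted p not credited to another tool (Benjamini-Hochberg over all tested genes, threshold 0.05). The interaction is the wild type minus the mutant log2 fold change. CPM are counts scaled by TMM library size; 2 counts were added as a prior before the log2 of CPM. DESeq2 1.42.0 and limma 3.58.1 were alternatives, as were other scalings, filters, trends and left-out libraries. On simulated data with 15186 genes, 200 of them changed, 22.2% of genes changed 2-fold and 67.8% of those changed 4-fold were recovered, and 4.05% of calls were false. The simulated counts were drawn independently around a common mean per gene, with no library that stood apart. These rates therefore need not hold for the real libraries, in which moderate wild type 1 stood apart.

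Genes and lists were chosen with earlier results of these data known, and the ER-to-Golgi list after Sec24d was seen. Named genes are those that passed, filled to 10 per direction by smallest p (non-overlapping groups, at least 5 CPM in the higher group, no sex-linked, clone-named or multi-copy genes), 20 genes of folate, methylation, Hedgehog and Rsg1 function, and the 5 members of smallest p in each list; some of these are not reported here. Lists were described by counts and medians only.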

Additional observations from a re-analysis of the deposited data

How the results depend on the processing

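The number of genes called moved with most settings, and the cause was not tested. Against 4 higher and 0 lower, DESeq2 called 617 and 538, limma-voom with quality weights 15 and 2, limma on log2(TPM + 1) 1 and 0, and limma on log2(TPM + 0.1) 8 and 5. Library totals as the only scaling gave 2 and 0, no filter on low counts 65 and 15, a filter of 1 CPM in 3 libraries 31 and 8, and a fit on the wild type libraries alone, with fewer samples, 0 and 0. The Xist covariate gave 14 and 1, removal of a length trend 48 and 12, and glmTreat at 1.5-fold 1 and 0. Added after the data were seen, removal of a GC trend gave 26 and 8, and leaving out moderate wild type 1 and fortified mutant 2 and 3, which stood apart on the first component, 660 and 638. Leaving out 1 library at a time gave 1 to 487 higher and 0 to 525 lower, both highest without moderate wild type 1. The test of the difference between genotypes called 0 genes except with DESeq2, which called 5.

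Adding the replicate number as a block called 52 genes higher and 13 lower. The numbers share only a label: deviations of same-numbered libraries correlated at 0.0999, 0.212 and 0.0932, and fortified wild type 3 correlated better with moderate wild type 1 (0.0986). The block turned the sign of Dnmt1 from -0.03 to 0.0412.

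Over all values of single genes and settings 1994 kept their sign and their side of the threshold, 369 came to pass it with the same sign, and 25, all of the 4 called genes, no longer passed. Of the named genes, 7 changed sign in some setting, all with overlapping groups. Dnmt1 was 0.38 with limma-voom, 0.00835 on log2(TPM + 1), 0.0116 on log2(TPM + 0.1), 0.15 with the Xist covariate, 0.0519 with the length trend removed, 0.60 without the 3 libraries that stood apart, and -0.29 to 0.59 with 1 library left out. Aldh1l2 was 0.36 on log2(TPM + 1), 0.39 on log2(TPM + 0.1), 0.30 with the Xist covariate and -0.77 to 0.50 with 1 library left out. Ptch1 was 0.22 with limma-voom and 0.40 without the 3 libraries. With 1 library left out Ptch1 ran from -0.42 to 0.40, Dnmt3a from -0.0309 to 0.46, Sec23b from -0.21 to 0.0810, Slc19a1 from -0.33 to 0.0663 and Tyms from -0.0588 to 0.59.

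With 3 libraries per group, 75 genes had an adjusted p under 0.055. Genes with few counts, such as Tnn and Dnmt3l, have fold changes that depend on the prior. DESeq2 gave no adjusted p for 320 of the tested genes.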

Other observations

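Itga11, the alpha11 integrin chain that binds fibrillar collagen, had 13.7, 34.4 and 43.3 CPM in the moderate and 249, 115 and 201 CPM in the fortified libraries (log2 fold change 2.63, edgeR adjusted p = 0.0503). In mutant cells its log2 fold change was -0.08 and the difference between genotypes 2.70 (SE 0.603, edgeR adjusted p = 0.708). Pdgfra, the platelet-derived growth factor receptor of mesenchymal progenitors, had 70.5, 44.8 and 34.6 CPM and 223, 89.2 and 118 CPM, with the groups apart. Runx1, a transcription factor of blood and mesenchyme, had 56.9, 74.4 and 58.7 CPM and 125, 115 and 177 CPM (adjusted p = 0.0503). Of 24 planar cell polarity genes 5 had higher and 2 lower values at an unadjusted p under 0.05, against 9.67% and 9.98% of all genes. Vangl1, a core membrane protein of the pathway, had 11.3, 15.2 and 9.36 CPM and 21, 22.8 and 18.8 CPM.

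Grem1, which binds and blocks BMPs, had 17.1, 213 and 197 CPM at moderate and 18.4, 21.7 and 13.2 CPM at fortified folic acid in wild type cells, with moderate wild type 1 as low as the fortified libraries. It had 63.3, 79.6 and 226 CPM and 18, 11.9 and 9.07 CPM in mutant cells. Fstl1, a secreted follistatin-like glycoprotein, had 1565, 1269 and 1144 CPM and 2430.2, 2393 and 2519 CPM (adjusted p = 0.0607). The calcium-binding protein S100a13 had a log2 fold change of 1.42 in wild type and 1.87 in mutant cells (adjusted p = 0.0539 and 0.00977), and S100a10 0.75 and 1.44. The list of S100 and related genes that holds them had 17 of 23 positive in wild type cells and a median of 0.38, which was 0.09 without fortified wild type 2, 0.16 when moderate wild type 1 was left out and 0.67 when moderate wild type 2 was. Klf15, a glucocorticoid-responsive factor of adipose and muscle, had 1.93, 7.74 and 9.13 CPM at moderate and 1.72, 1.43 and 0.218 CPM at fortified folic acid, and -2.48 and -3.02 as log2 fold changes in wild type and mutant cells.

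The chemokine Cxcl12, made by mesenchymal stroma, had 195, 282 and 157 CPM and 557, 408 and 377 CPM in wild type cells (log2 fold change 1.08, adjusted p = 0.0918), and 0.01 in mutant cells. The stress-induced haem oxygenase Hmox1 (-1.28) and thioredoxin reductase Txnrd1 (-0.71) had lower mean values. The catalase gene Cat (0.48), the NRF2 inhibitor Keap1 (0.48) and transketolase Tkt (0.53) had higher ones. The 26 NRF2 genes thus had no common sign. At an unadjusted p under 0.05, 4 were higher (15.4%) and 3 lower (11.5%), against 9.67% and 9.98% of all genes.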
